A study of Mus musculus with 2 samples.

Results

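The genes described here are named for the proteins of the cytosolic ribosome. They were chosen by symbol: names formed from Rpl or Rps and a number, with an optional suffix, together with *Rplp0*, *Rplp1*, *Rplp2* and *Rpsa*. The rule found 84 of the 28692 genes in the files, of which 31 encode proteins of the small 40S subunit, 43 proteins of the large 60S subunit, 3 the ribosomal stalk, and 7 are paralogs whose names end in l or l1. All 84 had at least 1 UMI (a counted RNA molecule) in each library, and 81 had enough UMIs to be tested. The 3 members that did not are *Rpl10l*, *Rpl39l* and *Rpl3l*. The paralog *Rpl6l* has no coding transcript in the annotation used here, so it may encode no protein.

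The cells were wild type hematopoietic stem and progenitor cells (HSPCs) from the livers of E13.5 embryos of CD1 mice. Erythroid cells carrying TER-119 were depleted, cells positive for both Sca-1 and cKit were sorted, and 1000 cells per well were seeded on plates coated with DL4, a Notch ligand, at 10 µg/mL and VCAM-1, an adhesion molecule, at 2.32 µg/mL, which directs them towards the T-cell lineage. There were 2 droplet libraries, FL001 and FL002, with the same labels and no untreated group. The study describes captures directly after sorting and after culture as pooled, without saying on which day either library was taken. Differences between the gates below therefore cannot be told apart from differences in time in culture. The labels do not say whether the libraries came from separate cultures or embryos. With the library as a block, the p-values below measure only how differences between gates vary between these 2 libraries. That spread may be technical.

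Cells were placed in 5 gates by the UMIs of stage genes. The progenitor gate held cells with at least 2 UMIs of *Lmo2* plus *Mef2c* and at most 1 of *Cd3g*. The low *Cd3g* gate held cells with at most 2 UMIs of *Cd3g* and at most 1 of *Lmo2* plus *Mef2c*. The next gate held cells with at least 3 UMIs of *Cd3g* and none of *Il2ra*, and the *Il2ra* gate held cells with at least 1 UMI of *Il2ra*, the CD25 gene that marks the DN2 stage. The commitment gate held cells with at least 2 UMIs of *Ptcra*, *Lef1* and *Bcl11b* together, genes switched on as cells commit to the T-cell lineage. From the progenitor to the commitment gate these held 428, 381, 327, 738 and 451 cells in FL001 and 724, 1134, 873, 1668 and 501 in FL002. Gates could overlap: 539 and 802 cells lay in more than 1, and every commitment cell lay in an earlier gate too. Levels below use the gates as they stand, while each test used 5 separate groups in which a cell of several gates counted once, in the latest.

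After filtering, FL001 had 1788 cells with a median of 7722 UMIs and FL002 had 4100 cells with a median of 4752.5, and 10 barcodes were kept in both. Summed T lineage markers rose from 73.9 and 101 CPM (counts per 1000000 UMIs) in the progenitor gate of FL001 and FL002 to 5996 and 5752 in the commitment gate, and progenitor markers fell from 1097 and 1139 to 87.6 and 85.3, and both lists hold genes that define the gates. Markers of other lineages also differed between gates. The neutrophil and monocyte list stood at 2460.4 and 1622 CPM in the progenitor gate and at 31.1 and 84.9 in the commitment gate, where *Mpo* was at 11.5 and 35.9, and in the low *Cd3g* gate it was at 3704 in FL001 and 1111 in FL002. The megakaryocyte list stood at 666 and 337 CPM in the progenitor gate and at 10.4 and 9.29 in the commitment gate, and the list for dividing cells at 1661 and 1723 against 1366 and 1431. The erythroid and B lists were lower in the commitment gate too. The mast cell and basophil list rose from 63.4 and 74.6 to 117 and 102 CPM, and the innate lymphoid and NK list from 96.1 and 66.8 to 170 and 191. The part of these cells in the results below was not tested. The main values include all of these cells. Some are also given without cells holding 3 or more UMIs of what are called other lineage markers below. These are the neutrophil and monocyte, megakaryocyte, erythroid, and mast cell and basophil lists. Cells with B or innate lymphoid markers stayed in.

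Ribosomal proteins are made in nearly matching amounts and assembled with ribosomal RNA into the 40S subunit, which decodes mRNA, and the 60S subunit, which forms the peptide bonds. Their mRNAs typically begin with a run of pyrimidines, the terminal oligopyrimidine tract, through which mTOR signalling controls their translation. Several members are known for effects beyond this shared role: loss of *Rpl22* blocks the development of alpha-beta T cells, its protein represses the paralog *Rpl22l1*, *Rps27l* is a target of p53, and mutations of human *RPS19* and loss of one copy of human *RPS14* cause anemias.

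The start regions of 63 members were found in the RefSeq promoter table (build GRCm38.p6). In 29 of them a run of at least 8 pyrimidines (C or T, read on the gene's strand) reached within 10 bases of the start. That is 46.0%, against 16.1% of all 27025 genes in the table. A C at the start followed by 4 pyrimidines was present in 13 members, or 20.6%, against 3.01% of all genes. The following stretches are those of 4 members with large changes from the progenitor to the commitment gate, *Rpl28* and *Rpl4*, which were lower, and *Rpl27a* and *Rps27l*, which were higher. Each runs from 55 bases before the start to 25 bases from it and lies on the + strand. Capitals mark the longest pyrimidine run that reaches within 10 bases of the start. The stretches lie at chr7:4792910-4792989, chr9:64173332-64173411, chr7:109519140-109519219 and chr9:66946031-66946110 in the order shown.
Rpl28: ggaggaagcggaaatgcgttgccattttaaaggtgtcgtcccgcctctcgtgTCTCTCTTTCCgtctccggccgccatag
Rpl4: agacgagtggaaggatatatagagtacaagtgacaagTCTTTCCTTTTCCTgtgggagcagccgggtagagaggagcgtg
Rpl27a: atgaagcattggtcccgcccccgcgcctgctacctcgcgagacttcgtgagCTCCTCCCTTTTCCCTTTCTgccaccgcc
Rps27l: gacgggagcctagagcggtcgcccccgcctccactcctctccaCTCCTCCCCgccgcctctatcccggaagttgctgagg
The run was 11 bases long in *Rpl28*, 14 in *Rpl4*, 20 in *Rpl27a* and 9 in *Rps27l*. In *Rpl4* and *Rps27l* the whole run lay before the listed start. These 4 were picked from members with a run, and 34 of the 63 have none, among them *Rps4x*, which also fell.

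Ribosomal protein mRNAs made up 22.5% of all UMIs in FL001 and 24.4% in FL002. In droplets with 1 to 100 UMIs, which hold free RNA rather than a cell, the share was 18.7% and 20.7%. The share was highest in the progenitor gate of both libraries. In FL001 it was 24.4% in the progenitor gate, 22.3% in the low *Cd3g* gate, 21.4% in the *Cd3g* gate without *Il2ra*, 21.8% in the *Il2ra* gate and 21.4% in the commitment gate. In FL002 the same gates had 25.1%, 24.6%, 23.8%, 24.4% and 23.6%. The 95% exact binomial intervals, which like all intervals here cover counting error only, were narrow: 24.36 to 24.45% for the progenitor gate and 21.40 to 21.49% for the commitment gate of FL001. A share cannot tell a fall in these mRNAs from a rise in other RNA. Later gates had smaller shares than the progenitor gate in both libraries, and every gate had a larger share in FL002 than in FL001.

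**Figure D1:**
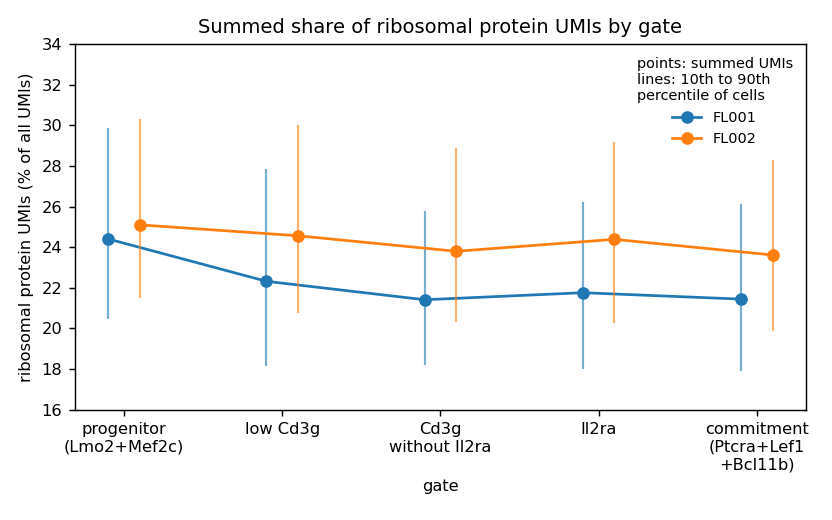
Share of UMIs from ribosomal protein genes (% of all UMIs, vertical axis, which starts at 16) in the 5 gates (horizontal axis), for FL001 in blue and FL002 in orange. Points are summed UMIs and vertical lines span the 10th to 90th percentile of single cells; the progenitor gate was highest at 24.4 and 25.1%, and the spans of all gates overlap.

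The commitment gate lay below the progenitor gate by a difference of -2.96 percentage points in FL001 and -1.48 in FL002, with a mean of -2.22 ± 1.04 (SD, n = 2). The difference between the *Cd3g* gate without *Il2ra* and the progenitor gate was -2.99 in FL001 and -1.30 in FL002, with a mean of -2.14 ± 1.19 (SD, n = 2). The *Il2ra* gate was above the *Cd3g* gate without *Il2ra* by 0.346 points in FL001 and 0.588 in FL002, but among cells of similar depth (3000 to 8000 UMIs) that difference was -0.0922 in FL001 and 0.686 in FL002. No test was made, since an exact test over 2 libraries cannot pass 0.05.

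Single cells of a gate spread far more widely than the gates differed. In the progenitor gate of FL001 the 10th percentile, median and 90th percentile of cells were 20.5, 24.6 and 29.8%, and in the commitment gate they were 17.9, 21.3 and 26.1%. In the progenitor gate cells with more UMIs had smaller shares. When the progenitor cells were split into 4 groups by depth, the shallowest group (107 and 181 cells) had a share of 25.9% in FL001 and 27.5% in FL002, and the deepest had 23.0% and 23.9%. In the other gates the deepest group also had the smallest share, but the share did not always fall from group to group: in the *Il2ra* gate of FL002 the 4 groups had 24.9, 25.3, 25.1 and 23.4%. Within cells of 3000 to 8000 UMIs the difference between the commitment and the progenitor gate was -3.73 points in FL001 and -1.73 in FL002. Without cells holding other lineage markers it was -2.04 and -1.43, although only 54 and 181 progenitor cells then remained.

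The summed UMIs of the 2 subunits did not move in equal measure. The UMIs of 60S members divided by those of 40S members, with stalk and paralogs left out, gave 1.019 in the progenitor gate of FL001 and then 1.010, 0.998, 0.992 and 0.983 in the later gates. In FL002 the ratio was 1.015, then 1.013, 1.008, 0.996 and 0.992. It fell from each gate to the next in both libraries, although without cells holding other lineage markers it was 1.008 in the progenitor gate and 1.011 in the low *Cd3g* gate of FL002. Over all cells the commitment gate differed from the progenitor gate by -0.0361 in FL001 and -0.0228 in FL002. In the test below the median log2 fold change between these gates was similar, -0.14 for 40S and -0.15 for 60S members. The ratio weights abundant members most, and *Rps14*, an abundant 40S member, rose (log2 fold change 0.22). The ratio was not computed without *Rps14*. It was computed after other values had been seen and was not tested.

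**Figure D2:**
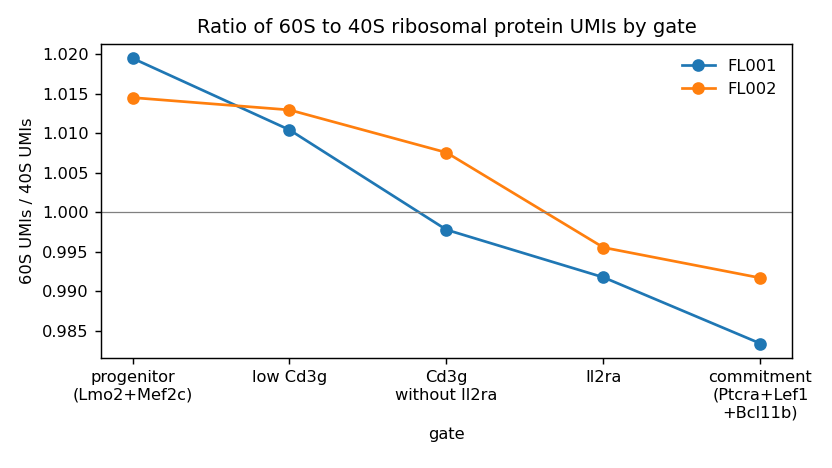
Summed UMIs of the 43 60S members divided by those of the 31 40S members (vertical axis, which does not start at 0) in the 5 gates (horizontal axis), FL001 in blue and FL002 in orange. The ratio fell from 1.019 to 0.983 in FL001 and from 1.015 to 0.992 in FL002.

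Levels of single members spanned more than 4 orders of magnitude on the CPM scale, which for these 3' libraries is not divided by length. *Rps19*, a 40S protein, was highest at 8339 CPM in FL001 and 9508 in FL002. *Rpl32* of the 60S subunit followed at 7521 and 8391, and *Rps14*, which lies on the platform of the 40S subunit, at 7418 and 7759. The lowest were the paralogs *Rpl10l* at 1.12 and 1.27 CPM, *Rpl39l* at 0.595 and 1.17, and *Rpl3l* at 0.198 and 0.235, which rest on 17, 9 and 3 UMIs in FL001 and on 27, 25 and 5 in FL002. These paralogs are known from testis and muscle, and the levels here were a small fraction of those of *Rpl10*, *Rpl39* and *Rpl3*.

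Some members of the core ribosome were also listed far below the others. *Rps12* was at 25.9 and 23.6 CPM, *Rps27* at 68.2 and 70.1, *Rps2* at 61.5 and 53.9, and *Rpl29* at 7.60 and 6.58. Many members share sequence with other transcripts, including processed copies of ribosomal protein genes, and reads that match several genes are commonly not counted. Among 60-base stretches in the last 300 bases of their transcripts, the median member shared 47.7% with transcripts of other genes, against a median of 0 for the 10462 tested genes with a coding transcript. The 18 members under 1000 CPM that are no paralogs had a median of 76.1%, against 27.8% for the 59 at or above it. The stretches of *Rps27*, *Rpl9* and *Rpl10* were all shared, as were 94.2% of those of *Rps12*, whereas *Rpl6* at 456 and 443 CPM and *Rpl21* at 52.0 and 40.5 CPM shared none. *Rpl36a* shared all of its stretches and stood at 2190.2 and 2531 CPM. The part of shared sequence in these levels was not tested, and the low levels are not read as low expression.

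**Figure D3:**
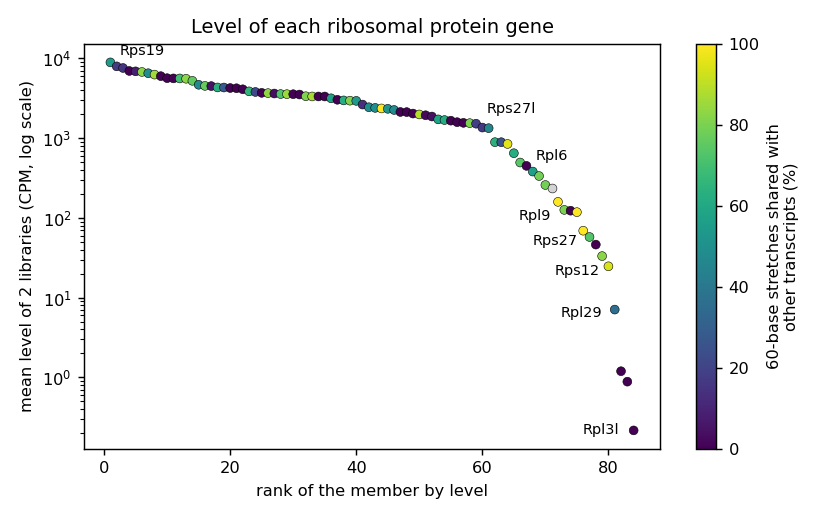
Mean CPM of the 2 libraries (vertical axis, log scale) of the 84 members ranked by level (horizontal axis), coloured by the share of 60-base stretches found in transcripts of other genes. Grey marks *Rpl6l*, which has no coding transcript in the annotation. The curve runs from *Rps19* at 8924 CPM to *Rpl3l* at 0.217 CPM, and 61 members lie above 1000 CPM.

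The comparison of the commitment with the progenitor gate asked how each member differed between the first and the last gate. It was made with edgeR's quasi-likelihood test on UMIs summed per library and gate, with the library as a block and p-values adjusted over all 10874 genes tested. Of the 81 members tested, 42 (51.9%) were lower in the commitment gate and 4 were higher at an adjusted p of 0.05. Among all genes tested, 18.8% were lower and 18.4% were higher. The median log2 fold change was -0.15 for members and -0.02 for all genes, and 66 of the 81 members were below 0. Since members are abundant and small changes are easier to call in abundant genes, the calls were also counted at 500 CPM or more: 38 of 65 members (58.5%) were lower there, against 27.4% of the 201 other genes, and 4 members were higher, against 31.3% of the others.

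The library block decided most of these calls. The 2 libraries differed in level, and without the block 9 of the 81 members (11.1%) were lower in the same edgeR test, against 12.6% of all genes, and 0 were higher. Of all 10874 genes 1415 were higher there. The 9 were *Rpl28*, *Rpl4*, *Rps4x*, *Rps15*, *Rpl10a*, *Rpl6*, *Rpl7l1*, *Rpl12* and *Rpl14*. DESeq2 called 31 lower and 3 higher, where 10.2% of all genes were lower and 1261 of 10874 were higher. Without cells holding other lineage markers edgeR called 32 lower and 3 higher, where 8.19% of all genes were lower and 841 of 9788 were higher. The progenitor gate then held only 54 of its 428 cells in FL001 and 181 of its 724 in FL002. All 42 lower and all 4 higher members kept their direction when the gates of each library were compared alone, without a test. Both libraries had entered the calls, so this is no separate support. Of the lower members 25 and of the higher 2 were called under every alternative with a test other than the fit without the block.

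By role, the members lower in the commitment gate were 14 of 31 in the 40S subunit, 24 of 43 in the 60S subunit, 1 of 3 in the stalk and 3 of 4 tested paralogs. The members higher were 2, 1, 0 and 1. Among all genes tested 18.8% were lower and 18.4% were higher. Without the library block 9 of the 81 members were lower, against 12.6% of all genes. The median log2 fold change was -0.14 for 40S, -0.15 for 60S, -0.05 for stalk members and -0.21 for paralogs.

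*Rpl28*, a 60S protein, had the largest fall among the members called. Its level was 2535 CPM in the progenitor gate of FL001 and then 2022, 1909.6, 1912 and 1845 in the later gates, and in FL002 it was 2496, 2263, 1984, 2074 and 1899.8. Both libraries had their highest level in the progenitor gate and their lowest in the commitment gate. The log2 fold change was -0.41 ± 0.05 (SE), with an edgeR adjusted p of 1.19e-07. The sparsely counted *Rpl29* had a log2 fold change of -0.53 ± 0.31 (SE) and was not called (edgeR adjusted p = 0.187).

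*Rpl4*, which lines the exit tunnel of the 60S subunit, stood at 4790.3, 4043, 3627, 3687 and 3549.9 CPM from the first to the last gate of FL001 and at 4786, 4326, 3890.2, 3999 and 3816 in FL002. Its log2 fold change was -0.37 ± 0.04 (SE, edgeR adjusted p = 6.99e-08). *Rps4x*, an X-linked 40S gene, stood at 7442, 6557, 5613, 5792 and 5379 CPM in FL001 and at 7423, 6864, 6284, 6584 and 6073 in FL002, a log2 fold change of -0.37 ± 0.04 (SE, edgeR adjusted p = 7.64e-08). The libraries were nearly equal in the progenitor gate for both genes, and every later gate was below it. *Rpl4* and *Rps4x* were also the only 2 members called between the low *Cd3g* gate and the *Cd3g* gate without *Il2ra*.

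The members that rose numbered 4 and are named together, although only the 3 with the largest changes fall under the rule used to name genes. *Rps14* stood at 7152, 6852, 7412, 7718 and 8298 CPM in FL001 and at 7362, 7494, 7815, 8074 and 8491 in FL002. The commitment gate was the highest in both libraries, with a log2 fold change of 0.22 ± 0.04 (SE, edgeR adjusted p = 0.000129). *Rpl27a* of the 60S subunit stood at 3885, 3765, 4148, 4115 and 4311 CPM in FL001 and at 4093, 4322, 4709, 4717 and 4929 in FL002. It too was highest in the commitment gate of both, with a log2 fold change of 0.22 ± 0.05 (SE, edgeR adjusted p = 0.000211). Without the library block neither *Rps14* nor *Rpl27a* was called. *Rps13* rose by 0.12 ± 0.04 on the log2 scale (SE, edgeR adjusted p = 0.0396), a call that was lost under 8 of the 9 alternatives with a test.

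*Rps27l*, the p53-responsive paralog of *Rps27*, followed another course. In FL001 it rose from 1228 CPM in the progenitor gate to 1458, 1628, 1685 and 1626 in the later gates. In FL002 it went from 1337 to 1597 and 1599 and then down to 1530.2 and 1429. The rise into the low *Cd3g* gate was thus present in both libraries, whereas the commitment gate lay 0.40 above the progenitor gate in FL001 and 0.10 above it in FL002 on the log2 scale. In the test the log2 fold change was 0.25 ± 0.07 (SE, edgeR adjusted p = 0.0113) from the progenitor to the low *Cd3g* gate and 0.28 ± 0.07 (SE, edgeR adjusted p = 0.00127) from the progenitor to the commitment gate. The first call was lost with DESeq2 (adjusted p = 0.0642), in cells of 3000 to 8000 UMIs (adjusted p = 0.127) and without the library block (adjusted p = 0.231). The second was lost when each cell was thinned to 2000 UMIs (adjusted p = 0.198) and without the library block (adjusted p = 0.0578).

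*Rps27l* was the only member that stood apart from the others between gates in both libraries. For the 77 members with at least 50 CPM, the log2 change between 2 gates was set against the median of the members and called apart beyond 3 scaled median absolute deviations in each library. From the progenitor to the low *Cd3g* gate *Rps27l* lay 0.39 above the members' median in FL001 and 0.29 above it in FL002. From the progenitor gate to the *Cd3g* gate without *Il2ra* it lay 0.60 and 0.35 above. The same gene and comparisons were found within cells of 3000 to 8000 UMIs and without cells holding other lineage markers. On plain CPM, without taking off the members' median, 3 pairs of gene and comparison stood apart, of which 1 was shared. This is a description of members against each other, with no test.

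**Figure D4:**
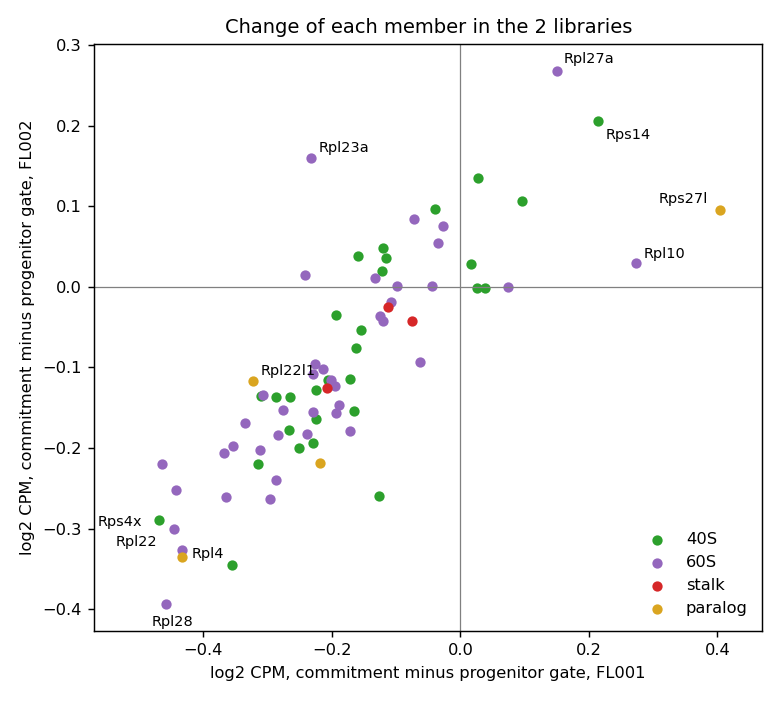
Difference in log2 CPM between the commitment and the progenitor gate in FL001 (horizontal axis) and FL002 (vertical axis) for the 77 members with at least 50 CPM, coloured by role. In both libraries 54 members were lower and 7 were higher, and *Rps27l* lay at 0.40 in FL001 and 0.10 in FL002.

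Both genes of the *Rpl22* pair fell. *Rpl22* stood at 1490.0, 1229, 1175, 1155 and 1094 CPM in FL001 and at 1638, 1520.2, 1394, 1392 and 1329 in FL002. *Rpl22l1* stood at 3144, 2734, 2629.8, 2396 and 2515 CPM in FL001 and at 3488, 3310.2, 3182, 3192 and 3218 in FL002. The log2 fold changes from the progenitor to the commitment gate were -0.36 ± 0.05 for *Rpl22* (SE, edgeR adjusted p = 3.14e-06) and -0.21 ± 0.05 for *Rpl22l1* (SE, edgeR adjusted p = 0.00182). Both calls were lost without the library block. Of the UMIs of the pair, *Rpl22l1* held 67.8% in FL001 and 68.1% in FL002 in the progenitor gate, and 69.7% and 70.8% in the commitment gate. The intervals of both gates did not overlap in either library, at 67.1 to 68.5% and 68.9 to 70.5% in FL001 and at 67.4 to 68.7% and 69.9 to 71.6% in FL002. The *Il2ra* gate of FL001, at 67.5%, was below its progenitor gate, so the share did not rise steadily there. Its interval of 66.9 to 68.1% lay below that of the *Cd3g* gate without *Il2ra*, 68.2 to 70.0%, again without overlap. These intervals cover counting error only, and the shift was not tested. Of the stretches compared above, 61.8% in *Rpl22l1* and 16.6% in *Rpl22* occur in other transcripts.

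*Rpl7l1* and *Rpl6l* also fell. *Rpl7l1*, a paralog of *Rpl7* that acts in ribosome assembly, went from 151 to 112 CPM in FL001 and from 135 to 107 in FL002 between the first and last gate, with a log2 fold change of -0.36 ± 0.09 (SE, edgeR adjusted p = 0.00194). Its partner *Rpl7* went from 3811 to 3251 CPM and from 3922 to 3522, with a log2 fold change of -0.18 ± 0.04 (SE, edgeR adjusted p = 0.00216). *Rpl6l*, which has no coding transcript in the annotation, had a log2 fold change of -0.20 ± 0.08 (SE, edgeR adjusted p = 0.0335). *Rpl6* had one of -0.34 ± 0.07 (SE, edgeR adjusted p = 0.000172). The *Rpl7l1* call was lost among cells of 3000 to 8000 UMIs, after thinning and without cells holding other lineage markers. The *Rpl7* call was lost without the block. The *Rpl6l* call was lost with DESeq2, without the block and among cells of 3000 to 8000 UMIs. *Rps27* and *Rpl10* had edgeR adjusted p-values of 0.895 and 0.150. All of their stretches are shared with other transcripts, so their counts may be uncertain, which was not tested.

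**Figure D5:**
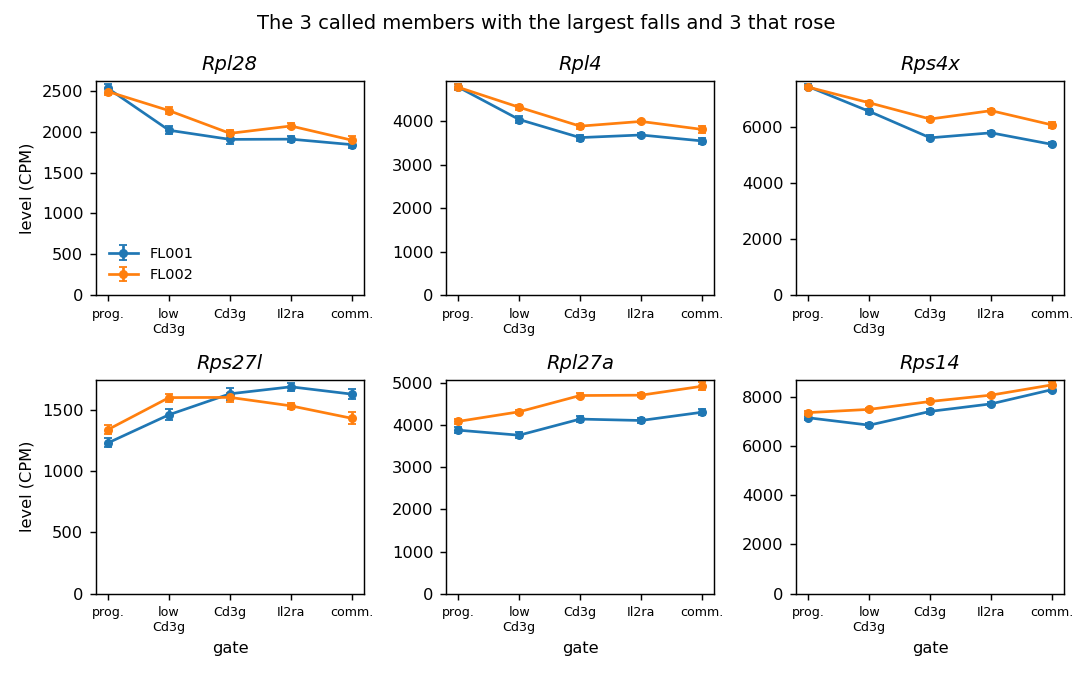
CPM (vertical axes, from 0) of the 3 called members with the largest falls (*Rpl28*, *Rpl4*, *Rps4x*) and of 3 that rose (*Rps27l*, *Rpl27a*, *Rps14*) in the 5 gates, FL001 in blue and FL002 in orange, with 95% exact Poisson intervals. *Rpl28* fell from 2535 and 2496 to 1845 and 1899.8 CPM, while *Rps27l* rose in both libraries into the low *Cd3g* gate and turned down in FL002.

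Of the stalk proteins, which recruit translation factors to the 60S subunit, *Rplp1* passed the test, at -0.15 ± 0.05 (SE, edgeR adjusted p = 0.0178). Its levels in the progenitor and commitment gates were 1709 and 1480.1 CPM in FL001 and 1834 and 1681 in FL002. The call was lost with DESeq2, without the block and without cells holding other lineage markers. *Rplp0* had a log2 fold change of -0.05 (edgeR adjusted p = 0.397) and *Rplp2* one of -0.05 (edgeR adjusted p = 0.493). *Rpsa*, the 40S protein also known as a laminin receptor, was at -0.13 ± 0.05 (SE, edgeR adjusted p = 0.0345), a call that was lost with DESeq2, without the block, within cells of similar depth, after thinning and without cells holding other lineage markers. The most abundant member, *Rps19*, had a log2 fold change of -0.02 ± 0.04 (SE, edgeR adjusted p = 0.776): in the progenitor and commitment gates it stood at 8590.1 and 7906 CPM in FL001 and at 8851 and 9153 in FL002.

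Between neighbouring gates few members were called. From the progenitor to the low *Cd3g* gate 8 members were lower (5.19% of all genes were) and 1 was higher (6.58% of all genes were). The lower ones included *Rpl36a*, *Rpl28*, *Rpl22*, *Rpl4* and *Rpl10a*, with log2 fold changes from -0.22 to -0.15, and the one that rose was *Rps27l*. Of the stretches compared above, 100% in *Rpl36a*, 86.7% in *Rpl10a*, 16.6% in *Rpl22* and 0% in *Rpl28* and *Rpl4* are shared with other transcripts. The part of this in the calls was not tested. From the low *Cd3g* gate to the *Cd3g* gate without *Il2ra* 2 members were lower and 0 higher by edgeR (3 higher at an unadjusted p under 0.05), where 7.85% of all genes were called in either direction. DESeq2 called 0 members there. From the *Cd3g* gate without *Il2ra* to the *Il2ra* gate edgeR called 0 members, with 0 at an unadjusted p under 0.05 as well, DESeq2 called 0 too, and 0.147% of all genes were called. From the *Il2ra* to the commitment gate *Rps4x* and *Rpl6* were lower (4.29% of all genes were) and *Rps14* was higher (5.28% of all genes were). Of the 81 members tested, 9.88% were lower in the first of these comparisons and 2.47% in the second and the last. The genes other than *Rpl28*, *Rpl4*, *Rps4x*, *Rps14*, *Rps27l*, *Rpl22* and *Rpl6* were named after their values were seen.

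Some members differed in level between the libraries. Over all kept cells *Rpl23a* was at 164 CPM in FL001 and 88.3 in FL002, a ratio of 1.85. *Rpl9* followed with a ratio of 1.51 and *Rpl7a* with 1.34. In the other direction *Rps28* had a ratio of 0.702, *Rps29* one of 0.714 and *Rpl39* one of 0.781. These 6 genes differed in the same direction in all 5 gates, as the levels of *Rpl23a* (from 152 to 178 CPM in FL001 and from 82.6 to 92.5 in FL002) and of *Rps28* (from 514 to 579 and from 729 to 776) show. The gates are parts of the cells by which these genes were picked, so this agreement is no separate support. Many other members, such as *Rpl34* and *Rpl35*, also kept 1 direction in all 5 gates. *Rpl23a*, *Rpl9* and *Rpl7a* share 80.1%, 100% and 78.8% of their stretches with other transcripts. *Rps28*, *Rps29* and *Rpl39* share 61.8%, 46.5% and 13.7%. The counts of these genes may be uncertain for this reason, which was not tested. No stated condition separates the libraries, so the ratios were not tested.

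The other genes of the translation machinery, from lists set for what they do, were also compared between the commitment and the progenitor gate. The counts below stand beside the 18.8% of all genes that were lower and the 18.4% that were higher. Among the 201 genes at 500 CPM or more that are no members, 27.4% were lower and 31.3% were higher. The lists were not split by level, and they were not counted without the library block. Of 30 genes of ribosome assembly, 8 (26.7%) fell and 1 (3.33%) rose, with a median log2 fold change of -0.16. *Npm1*, a nucleolar chaperone, was at -0.39 and *Ncl*, nucleolin, at -0.26, while *Nob1*, which trims the 40S rRNA, was at 0.64. Of 25 translation factors, other mRNAs with pyrimidine tracts and regulators of their translation, 8 (32%) fell and 2 (8%) rose, with a median of -0.09; *Npm1* is in both lists. The poly(A)-binding protein gene *Pabpc1* was at -0.72 and the elongation factor genes *Eef1g* and *Eef1a1* at -0.51 and -0.36, while *Larp1*, which binds the pyrimidine tract, was at 0.50 and *Rps6kb1*, which encodes the kinase of Rps6, at 0.34. Both that rose are regulators. All of the named changes passed the edgeR test.

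Mitochondrial ribosomal proteins, which are encoded in the nucleus but form another ribosome, were called at shares near those of all genes. Of 76 tested, 14 (18.4%) fell and 12 (15.8%) rose, with a median log2 fold change of -0.01. Of the Myc genes, which drive ribosome production, *Mycn* fell by 2.70 ± 0.18 on the log2 scale (SE, edgeR adjusted p = 8.59e-13), and *Myc* had a log2 fold change of -0.04 ± 0.13 (SE, edgeR adjusted p = 0.820). From the *Il2ra* to the commitment gate *Myc* fell by 0.41 ± 0.12 (SE, edgeR adjusted p = 0.0219).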

How the data were processed

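The authors used 10X Chromium for 3' libraries, an Illumina NextSeq for sequencing and CellRanger for the matrices, whose version and settings are not given in the sources used here; the submitters' processing notes name mm9. The deposited matrices hold counts of UMIs, not normalized and for all barcodes, with or without a cell.

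Barcodes with at least 1500 UMIs, 500 genes or more and up to 10% of UMIs from mitochondrial genes were kept, 1788 in FL001 and 4100 in FL002. No doublet caller was run, and leaving out the 5% of cells with the most UMIs was an alternative. CPM is UMIs summed over the cells of a gate per 1000000 UMIs. Intervals are 95% exact (binomial for shares, Poisson for levels).

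UMIs summed per library and gate (10 sums, TMM, genes with at least 50 UMIs) were tested with edgeR 4.0.16 in R 4.3.3, two-sided, Benjamini-Hochberg adjusted, with DESeq2 1.42.0 as an alternative. SE is the log2 fold change over the root of F. Both libraries hold every gate, so the library served as the pairing. The fit was tested on simulated data. Members, gates and lists were chosen with earlier results of these data known.

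Genes were named as members that stood apart, the 3 highest and 3 lowest by level, paralogs with their partners, stalk genes and *Rpsa*, the 3 that differed most in each direction from 1 library to the other, and the 3 with the largest called change each way; others are marked in the text. Shared stretches were counted in GENCODE transcripts of GRCm38, which is not the build of the notes, and promoters were matched to RefSeq by symbol. Python 3.11.15 was used with numpy 2.4.6, scipy 1.17.1 and pandas 2.3.3.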

Additional observations from a re-analysis of the deposited data

How the results depend on the processing

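The 3 mean differences in summed share kept their sign under the alternatives run, but in FL001 the *Il2ra* minus *Cd3g* difference turned to -0.0922 in cells of 3000 to 8000 UMIs. The progenitor share (24.8% as the mean of the libraries) was 25.6% in cells of 3000 to 8000 UMIs, 25.8% after thinning each cell to 2000 UMIs and gating it anew, 25.6% without mitochondrial UMIs and 27.0% without the 20 other genes with most UMIs, a setting that raised the later gates to 25.7%, 24.9%, 25.4% and 24.9%. The *Il2ra* minus *Cd3g* difference (0.467) was 0.287 after thinning. The 60S to 40S difference (-0.0294) was -0.0435 in cells of similar depth and -0.0526 after thinning.

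The library block, the pairing here, decided most calls: without it the commitment against progenitor test gave 9 members lower and 0 higher, and 0 members for each pair of neighbouring gates. Without it 12.6% of all genes were lower in the first case, and from 0.0092% to 1.57% between neighbouring gates. Thinning left 2 higher members, where 864 of 9220 genes were higher. For the first pair of gates (9 called) DESeq2 gave 5, cells of similar depth 1, and cells without other lineage markers 4. Of these 5, 1 and 3 were lower, where 1.56%, 1.81% and 1.27% of all genes were lower. For the second (2 called) DESeq2, cells in 1 gate only and cells of similar depth gave 0, where 1.61%, 3.88% and 2.4% of all genes were lower. With edgeR's own filter, cells without other lineage markers and cells without the 5% with most UMIs it was 1. The member was higher each time, where 460 of 10587, 233 of 9788 and 477 of 10758 genes were higher. For the last (3 called) DESeq2 and cells of similar depth gave 0, where 1.4% and 2.16% of all genes were lower. Cells without other lineage markers gave 6. All 6 were lower (7.41% of the members), where 3.56% of all genes were lower and 407 of 9788 were higher.

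The members' median log2 fold change (-0.15) was -0.22 after thinning and -0.11 without other-lineage cells, and ran from -0.16 to -0.11 with 1 library left out. With 1 library alone 6 to 12 gene and gate pairs stood apart instead of 2, the 2 among them in both cases; on plain CPM 3 did, of which 1 was shared. As shares of the members' own UMIs, 42, 43, 42 and 42 members of the later gates were higher in FL001, against 16, 14, 15 and 17 on CPM. Of 297 values for named genes, 26 lost and 2 gained the call. The 297 include values with 1 library left out, which have no test and could neither lose nor gain a call. They also include genes not called in the main fit, which had no call to lose. A change called in the main fit or in the alternative reversed its sign in 0 of the 297 values. Values called in neither were not checked for sign. The causes were not tested. Every commitment cell lies in another gate, so that gate has no cells in 1 gate only. A library alone gives no test. Differences in change between members were not tested. Ratios, shared barcodes and the last lineage check were added after seeing the data.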

Other observations

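Genes named as copies of members were listed beside them and were not counted as members. *Rps12-ps3* stood at 206 CPM in FL001 and 221 in FL002, above *Rps12* itself at 25.9 and 23.6. *Rps18-ps3* stood at 542 and 659 CPM against 509.8 and 481 for *Rps18*. *Rpl10-ps3* stood at 259.9 and 217 against 131 and 106 for *Rpl10*, *Rpl23a-ps3* at 276 and 275 against 164 and 88.3 for *Rpl23a*, and *Rpl9-ps6* at 252 and 223 against 191 and 127 for *Rpl9*. *Rps27rt* stood at 184 and 224 CPM against 68.2 and 70.1 for *Rps27*, and *Rpl27-ps3* at 180.0 and 149 against 36.4 and 30.0 for *Rpl27*. In FL001 and FL002 the listed copy was the higher of the pair in these 7 pairs, which were chosen after their values were seen. Some copies, such as *Rps2-ps6* at 10.8 and 9.82 CPM, lay below their member. The part of reads matching several genes was not tested.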
